A study of Homo sapiens with 18 samples.

Results

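PLTP and ANGPTL4 are 2 secreted proteins of plasma lipid transport, and their RNA was followed here across all 18 libraries of the study, as 2 of the 60622 genes in the deposited tables. They were chosen on a measured value: among genes with an adjusted p below 0.05 in induced cells given the PCAF/GCN5 compound, PLTP was higher and ANGPTL4 was lower than with DMSO. That contrast, and the interaction that contains it, are therefore given below as values with no test.

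PLTP is phospholipid transfer protein, which moves phospholipids between lipoprotein particles and remodels high-density lipoprotein (HDL). It belongs to the lipid-binding family of BPI, LBP and CETP, and its gene is a known target of the oxysterol receptor LXR. ANGPTL4 is angiopoietin-like 4, which binds and inactivates lipoprotein lipase and so limits the release of fatty acids from triglyceride-rich lipoproteins. Its gene is known to respond to the fatty acid receptors called PPARs, to hypoxia, to glucocorticoids and to TGF-beta.

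The cells were H1299, an established line from a human lung carcinoma of the non-small cell type. Induced cells made wild-type p53, switched on by doxycycline and joined to FKBP12F36V, a tag that the heterobifunctional AceTAG molecules bind in order to bring an acetyltransferase to the fusion protein. The 6 groups, of 3 libraries each, were induced cells with AceTAGp300CBP-1 (called here the p300/CBP compound), with AceTAGPCAFGCN5-4 (the PCAF/GCN5 compound) or with DMSO as vehicle, and non-induced cells with the same 3 treatments, all at 24 h. Both compounds were applied for the same time at doses that the sources used here do not give, and are compared only as applied. The titles of the induced libraries name p53-FKBP12F36V and H1299, whereas those of the non-induced libraries name H1299 alone. The label values also include p53-FKBP12F36V-induced H1299 and wt. The sources do not spell out whether non-induced cells were the inducible line or H1299 without the p53 fusion, or were exposed to doxycycline. Nor do they say whether the line is a single clone or whether replicates were separate cultures. The p-values therefore measure the spread between these libraries, which may be technical. A change on induction is here a difference between induced and non-induced cells, and may include a difference between lines. In the bulk samples, fewer cells that make a transcript and less of it per cell cannot be told apart.

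PLTP (ENSG00000100979) lies on the minus strand of chromosome 20, at chr20:45898621-45912155 in GRCh38, and ANGPTL4 (ENSG00000167772) on the plus strand of chromosome 19, at chr19:8363289-8374370. The positions are those in the deposited tables, which name no build and were placed on GRCh38 by comparison with GENCODE 29. The proximal promoters of the 2 genes are shown because the genes moved in opposite directions with both compounds in induced cells. Each stretch runs 5′ to 3′ along the gene's strand, holds 240 bases and ends 11 bases before the RefSeq start (GRCh38.p14; chr20:45912166-45912405, minus strand, for PLTP and chr19:8363905-8364144, plus strand, for ANGPTL4). Capitals mark the matches to the motifs that were searched.
PLTP: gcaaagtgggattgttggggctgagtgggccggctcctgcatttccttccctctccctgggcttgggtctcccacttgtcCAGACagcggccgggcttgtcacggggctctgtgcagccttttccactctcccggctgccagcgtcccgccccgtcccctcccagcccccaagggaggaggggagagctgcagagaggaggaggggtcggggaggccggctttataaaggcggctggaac
ANGPTL4: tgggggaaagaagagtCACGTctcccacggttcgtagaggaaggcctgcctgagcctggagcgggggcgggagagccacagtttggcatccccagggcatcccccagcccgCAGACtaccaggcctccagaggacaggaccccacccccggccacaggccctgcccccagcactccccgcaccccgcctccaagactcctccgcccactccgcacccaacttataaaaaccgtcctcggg
The motifs searched, on both strands, were CAGAC (the SMAD box of TGF-beta signalling), ACGTG (the core of a hypoxia response element), AGGTCA repeated after 4 bases of any kind (the DR4 element of LXR), AGGTCA repeated after 1 such base (the DR1 element of PPARs) and the p53 half-site. PLTP held 1 SMAD box, 170 bases before the start, and none of the other motifs. ANGPTL4 held 1 SMAD box, 139 bases before the start, and 1 hypoxia core on the opposite strand, 234 bases before the start. The SMAD box occurs in 36.9% of 35116 promoter windows of the same length, the hypoxia core in 17.7%, the p53 half-site in 5.3%, DR1 in 0.0171% and DR4 in 0.0142%. Neither window held a p53 half-site, DR1 or DR4. The ANGPTL4 window lies within the span listed for the gene, because the annotation also holds transcripts that start further upstream.

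Library totals ran from 9.1 to 29.2 M counts, with the third non-induced DMSO library lowest and all others at 19.3 M or above. The counts behind the values below ran from 134 to 3248 for PLTP and from 313 to 3880 for ANGPTL4. Levels are given in CPM, that is, counts scaled to a library total of 1000000. The mesenchymal markers VIM, CDH2, FN1 and ZEB1 and the keratins KRT8 and KRT18 were all detected, whereas EPCAM, CDH1 and the lung lineage markers NKX2-1, NAPSA and SFTPB were near 0. The third induced DMSO library had 0.714% of its counts on mitochondrial genes, against 1.32% to 2.45% in the other libraries.

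**Figure D1:**
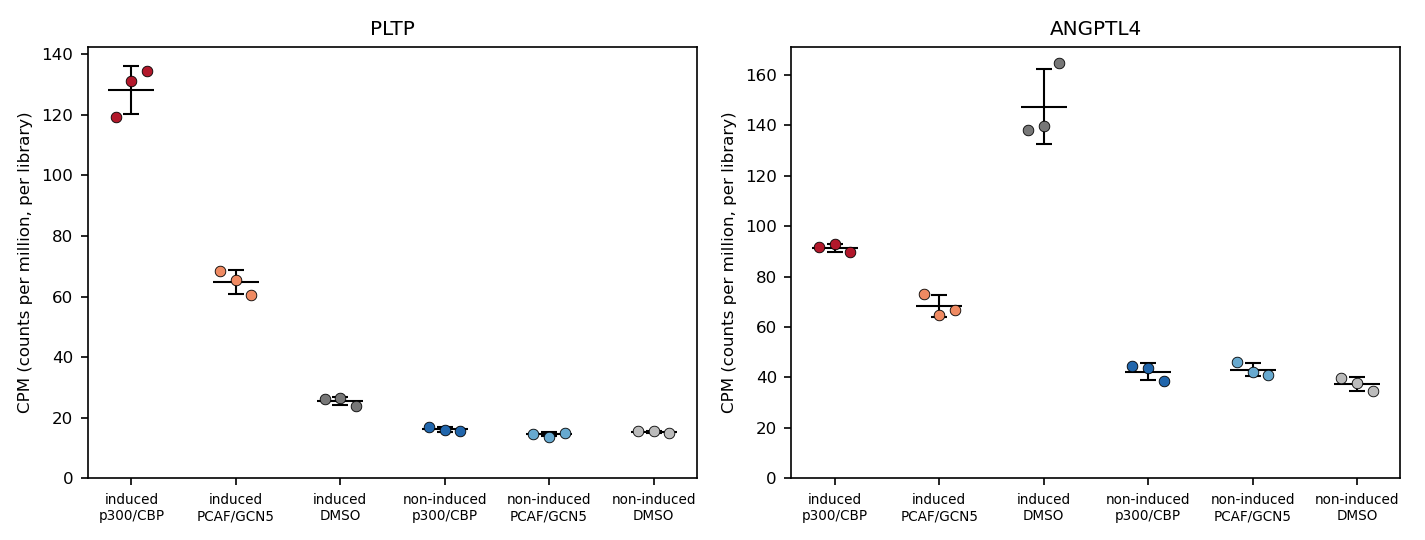
CPM of PLTP (left) and ANGPTL4 (right) in each of the 18 libraries (points), by group, with the group mean (bar) and SD (whiskers), n = 3 libraries per group. PLTP was highest in the induced libraries with the p300/CBP compound (119.3 to 134.3 CPM), whereas ANGPTL4 was highest in the induced DMSO libraries (138 to 164.5 CPM).

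With the p300/CBP compound in induced cells, PLTP rose and ANGPTL4 fell. PLTP had 119.3, 131.3 and 134.3 CPM with the compound, against 26.07, 26.67 and 23.96 CPM with DMSO. All 3 treated libraries lay far above all 3 DMSO libraries. The means were 128.3 ± 7.95 and 25.57 ± 1.42 CPM (SD, n = 3 libraries each), a log2 fold change of 2.32 ± 0.08, or 4.99-fold (SE; edgeR quasi-likelihood test with Benjamini-Hochberg adjustment over all genes tested, adjusted p = 6.95e-07). ANGPTL4 had 91.78, 92.83 and 89.69 CPM with the compound, against 138, 139.6 and 164.5 CPM with DMSO. The treated libraries lay close together and below every DMSO library, among which the third stood highest. The means were 91.43 ± 1.59 and 147.4 ± 14.9 CPM, a log2 fold change of -0.70 ± 0.08 (edgeR, adjusted p = 0.00201). In this comparison 5.98% of the 15019 genes tested were called, that is, had an adjusted p below 0.05, with 2.94% of the tested genes higher and 3.04% lower, while the libraries of the 2 groups did not overlap for 33.1%. The third induced DMSO library is also the one with the low mitochondrial share. Without it 3234 genes were called in this comparison in place of 898, and the log2 fold change of ANGPTL4 was -0.60 and that of PLTP 2.28, and over all libraries left out in turn the ANGPTL4 change stayed between -0.75 and -0.60 and was called each time (largest adjusted p = 0.0251).

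In induced cells, the PCAF/GCN5 compound gave the values by which both genes were chosen. PLTP had 68.37, 65.55 and 60.41 CPM with the compound, against 26.07, 26.67 and 23.96 CPM with DMSO, a log2 fold change of 1.31 ± 0.09 (SE). ANGPTL4 had 73.24, 64.9 and 66.55 CPM with the compound, against 138, 139.6 and 164.5 CPM with DMSO, a log2 fold change of -1.15 ± 0.10, or -1.05 without the third DMSO library. Neither gene's groups overlapped, which also held for 18.8% of all genes tested and is part of how the genes were chosen. In this contrast 0.345% of 15078 tested genes were called, 0.338% higher and 0.00663% lower. ANGPTL4 was the 1 gene called lower, and being called is part of how both genes were chosen. Just outside the threshold on the lower side were PMAIP1, which encodes the BH3-only protein NOXA (-0.60 ± 0.12), and GINS2, a subunit of the replicative helicase complex (-0.62 ± 0.13). On the higher side, the last gene inside the threshold was AC209154.1 (1.05 ± 0.18) and the first outside it NRCAM (1.39 ± 0.24).

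Set directly against each other in induced cells, the compounds differed in the level of both genes. PLTP averaged 128.3 ± 7.95 CPM with the p300/CBP compound and 64.78 ± 4.04 CPM with the PCAF/GCN5 compound, a log2 fold change of 1.00 ± 0.07 (edgeR, adjusted p = 8.74e-08). ANGPTL4 averaged 91.43 ± 1.59 CPM with the p300/CBP compound and 68.23 ± 4.41 CPM with the PCAF/GCN5 compound, a log2 fold change of 0.44 ± 0.06 (edgeR, adjusted p = 0.000545). Both genes were thus higher with the p300/CBP compound, with no overlap between the 3 libraries on either side, in a comparison that called 4.12% of 14983 tested genes and 1.87% as higher, and in which the groups did not overlap for 21.5%. This comparison shares the induced PCAF/GCN5 libraries, and the previous test of the p300/CBP compound shares the induced DMSO libraries, with the contrast that chose the genes.

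**Figure D2:**
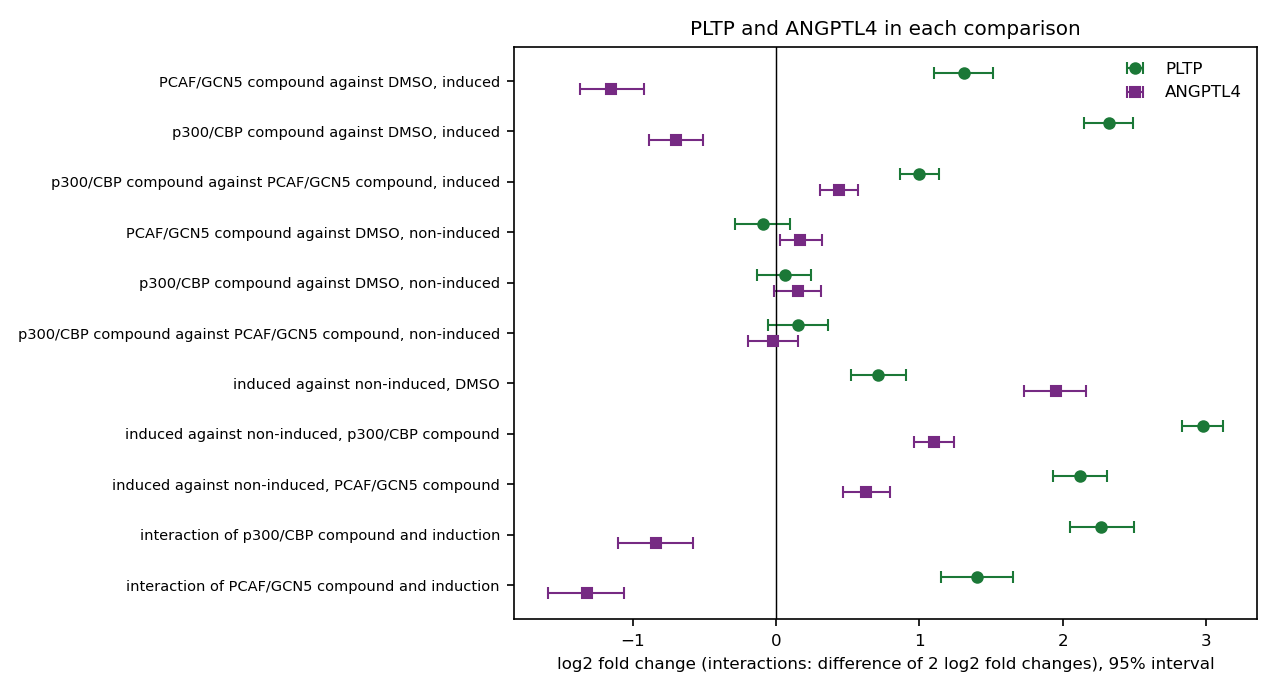
Log2 fold change (points) with its 95% interval (whiskers) for PLTP (circles) and ANGPTL4 (squares) in 9 comparisons of 2 groups and 2 interactions. In induced cells PLTP lay right of 0 and ANGPTL4 left of 0 with either compound against DMSO, while in non-induced cells both lay close to 0, between -0.09 and 0.17.

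In non-induced cells neither gene passed the threshold with either compound. PLTP had 17.07, 15.8 and 15.47 CPM with the p300/CBP compound, 14.66, 13.75 and 15.12 CPM with the PCAF/GCN5 compound, and 15.48, 15.57 and 14.8 CPM with DMSO. The 3 groups lay within a few CPM of each other, and each compound's libraries overlapped those with DMSO. The p300/CBP libraries all lay above the PCAF/GCN5 libraries, in a comparison in which the groups did not overlap for 20.9% of all genes tested. The log2 fold change of PLTP was 0.06 ± 0.09 with the p300/CBP compound (95% interval -0.13 to 0.24, edgeR adjusted p = 0.747), and -0.09 ± 0.09 with the PCAF/GCN5 compound (-0.29 to 0.10, adjusted p = 0.871).

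ANGPTL4 in non-induced cells had 44.59, 43.74 and 38.4 CPM with the p300/CBP compound, 45.95, 42 and 41.01 CPM with the PCAF/GCN5 compound, and 39.79, 37.92 and 34.56 CPM with DMSO. The p300/CBP libraries overlapped the DMSO libraries, whereas the PCAF/GCN5 libraries all lay above them, in a comparison in which the groups did not overlap for 12.9% of all genes tested. The log2 fold changes were 0.15 ± 0.08 with the p300/CBP compound (95% interval -0.01 to 0.31, edgeR adjusted p = 0.252) and 0.17 ± 0.07 with the PCAF/GCN5 compound (0.03 to 0.32, adjusted p = 0.779). The p300/CBP comparison called 9.89% of all genes tested and the PCAF/GCN5 comparison 0.0199%. Without the third library with the p300/CBP compound, the ANGPTL4 value was 0.21 and passed the threshold (adjusted p = 0.0274). Between the compounds, PLTP differed by 0.15 ± 0.10 (-0.06 to 0.36, adjusted p = 0.505) and ANGPTL4 by -0.02 ± 0.08 (-0.20 to 0.15, adjusted p = 0.936), where 1.09% of genes were called.

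Both genes were higher in induced than in non-induced cells under every treatment. With the p300/CBP compound, whose libraries had no part in choosing the genes, PLTP averaged 128.3 ± 7.95 CPM in induced and 16.11 ± 0.847 CPM in non-induced cells, a log2 fold change of 2.98 ± 0.07, or 7.87-fold (edgeR, adjusted p = 5.42e-16). ANGPTL4 averaged 91.43 ± 1.59 CPM in induced and 42.24 ± 3.35 CPM in non-induced cells with this compound, a log2 fold change of 1.10 ± 0.07 (adjusted p = 4.68e-10). All induced libraries lay above all non-induced libraries for both genes, in a comparison that called 32.6% of genes and 16.4% as higher, and in which the groups did not overlap for 43.9%.

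With the PCAF/GCN5 compound, PLTP averaged 64.78 ± 4.04 CPM in induced and 14.51 ± 0.699 CPM in non-induced cells, a log2 fold change of 2.12 ± 0.09 (edgeR, adjusted p = 2.88e-10). ANGPTL4 averaged 68.23 ± 4.41 CPM in induced and 42.99 ± 2.61 CPM in non-induced cells with this compound, a log2 fold change of 0.63 ± 0.08 (adjusted p = 2.56e-05), where 23.9% of genes were called and 11.4% were higher. In DMSO, PLTP averaged 25.57 ± 1.42 CPM in induced and 15.28 ± 0.421 CPM in non-induced cells, a log2 fold change of 0.71 ± 0.08 (adjusted p = 0.000754). ANGPTL4 averaged 147.4 ± 14.9 CPM in induced and 37.42 ± 2.65 CPM in non-induced cells in DMSO, a log2 fold change of 1.95 ± 0.10 (adjusted p = 8.51e-06) or, without the third induced library, 1.83, where 13.8% of genes were called and 6.01% were higher. The groups did not overlap for either gene, which also held for 40.1% of all genes tested with the PCAF/GCN5 compound and 37.1% in DMSO. The induced libraries of both these treatments also took part in the contrast that chose the genes. The order of the treatments by the size of the induction change was thus p300/CBP, PCAF/GCN5, DMSO for PLTP, and DMSO, p300/CBP, PCAF/GCN5 for ANGPTL4. Of the steps in this order, that between the p300/CBP compound and DMSO was tested.

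Whether the response to a compound depended on induction was tested as an interaction. For the p300/CBP compound, the log2 fold change of PLTP was 2.27 ± 0.11 higher in induced than in non-induced cells (95% interval 2.05 to 2.50, edgeR adjusted p = 2.75e-09). That of ANGPTL4 was lower in induced cells, with a difference of -0.84 ± 0.12 (-1.10 to -0.58, adjusted p = 0.00174), or -0.75 without the third induced DMSO library. The interaction was called for 1.28% of 15618 genes, 1.09% higher and 0.192% lower. The corresponding values for the PCAF/GCN5 compound, which contain the contrast that chose the genes, were 1.40 ± 0.12 for PLTP and -1.32 ± 0.12 for ANGPTL4, where 0.0696% of genes were called.

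By group mean, the order of PLTP levels was induced p300/CBP, induced PCAF/GCN5, induced DMSO and then the 3 non-induced groups, which did not differ past the threshold among themselves. The order for ANGPTL4 was induced DMSO, induced p300/CBP, induced PCAF/GCN5 and then the non-induced groups, again with no difference past the threshold among them. Per kilobase of counted length, the 2 transcripts can be set side by side. PLTP reached 50.5 ± 3.13 CPM per kb in induced cells with the p300/CBP compound, above 97.2% of the genes with a count, against 10.1 ± 0.56 CPM per kb with DMSO. ANGPTL4 reached 36.9 ± 0.644 CPM per kb with the p300/CBP compound, against 59.5 ± 6.01 CPM per kb with DMSO, above 97.6% of genes.

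The ratio of PLTP to ANGPTL4 per length, taken within each library, does not depend on library size. It was 1.27, 1.38 and 1.46 in induced cells with the p300/CBP compound, 0.909, 0.984 and 0.884 with the PCAF/GCN5 compound, and 0.184, 0.186 and 0.142 with DMSO. PLTP was thus the more abundant of the 2 transcripts in the induced p300/CBP libraries and the less abundant in the remaining 15. In non-induced cells the mean ratio was 0.372 ± 0.0202 with the p300/CBP compound, 0.33 ± 0.0259 with the PCAF/GCN5 compound and 0.399 ± 0.0191 with DMSO. The induced DMSO libraries thus had lower ratios than all non-induced libraries, and both compounds' induced libraries had higher ones. These ratios hold the values on which the genes were chosen and are given with no test.

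**Figure D3:**
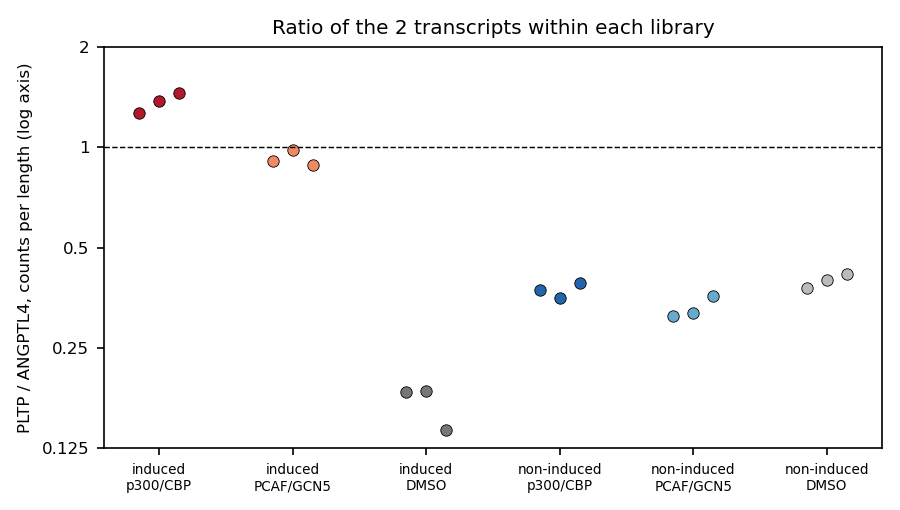
Ratio of PLTP to ANGPTL4, as counts per counted length, in each of the 18 libraries (points) by group, on a log axis, with a dashed line at 1. The 3 induced libraries with the p300/CBP compound lay above 1 (1.27 to 1.46), and the 3 induced DMSO libraries were lowest (0.142 to 0.186).

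Of the genes around PLTP, 2 also rose with the p300/CBP compound in induced cells. NEURL2, which encodes a neuralized E3 ubiquitin ligase protein and lies 7334 bases away on the same strand, averaged 9.374 ± 1.29 CPM with the compound and 3.856 ± 0.855 CPM with DMSO, a log2 fold change of 1.27 ± 0.19 (edgeR, adjusted p = 0.00516). AL008726.1, a transcript on that strand 5202 bases from PLTP, averaged 3.815 ± 0.516 CPM with the compound and 0.2655 ± 0.204 CPM with DMSO, a log2 fold change of 3.80 ± 0.41 (adjusted p = 0.00118). AL008726.1 was at or near 0 in non-induced cells, where its group means were 0.0252 to 0.0511 CPM. With DMSO in induced cells it had 0.04241 to 0.4418 CPM, so the size of its fold change rests on values near 0. Neighbours that do not overlap a member were kept at a mean of at least 1 CPM over the 18 libraries. AL008726.1 passed that filter only through the induced groups with a compound, so the filter favoured its rise. The PCAF/GCN5 compound in induced cells took neither NEURL2 nor AL008726.1 past the threshold. Its log2 fold changes were 2.88 ± 0.51 for AL008726.1 (edgeR, adjusted p = 0.0574) and 0.71 ± 0.20 for NEURL2 (adjusted p = 0.379). NEURL2 rose on induction under all 3 treatments, by 1.82 ± 0.17 with the p300/CBP compound (adjusted p = 1.16e-07), 1.47 ± 0.19 with the PCAF/GCN5 compound (adjusted p = 3.34e-05) and 0.98 ± 0.25 with DMSO (adjusted p = 0.033). CTSA, the lysosomal protective protein cathepsin A, runs on the opposite strand and overlaps the 3′ end of PLTP by 200 bases. It averaged 186.9 to 212 CPM over the 6 groups and its lowest adjusted p over the 11 comparisons was 0.164 (edgeR). AL008726.1 and NEURL2 both lie downstream of the 3′ end of PLTP. AL008726.1 lies within the span of CTSA, and NEURL2 overlaps the start of CTSA. The sources used here do not say whether reads were counted by strand, so reads of these genes and of CTSA may not be separable.

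Next to ANGPTL4, KANK3 rose on induction under each treatment and passed with neither compound. KANK3 encodes an ankyrin-repeat protein of the KANK family and lies 20027 bases upstream on the opposite strand. Its log2 fold change on induction was 2.08 ± 0.15 with the p300/CBP compound (edgeR, adjusted p = 6.55e-09), 2.01 ± 0.19 with the PCAF/GCN5 compound (adjusted p = 1.8e-06) and 1.52 ± 0.29 with DMSO (adjusted p = 0.00933). RAB11B-AS1, which lies on the opposite strand with its 3′ end 3 bases past the end of ANGPTL4, and RAB11B and RPS28 had no adjusted p below 0.122 over the 11 comparisons (edgeR).

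The genes nearest to each pattern were taken as those with the smallest root mean square difference from it in log2(CPM + 0.5) over the 6 group means, each gene centred on its own mean, among 13273 genes. For PLTP they were the long noncoding RNA LINC00324 (0.13), the neighbour AL008726.1 (0.13), PLEKHG1 (0.24), RPS27L (0.27), the death receptor gene FAS (0.28), SESN1 (0.28), which encodes a stress-induced inhibitor of mTORC1 signalling, MIR34AHG, the host transcript of miR-34a (0.29), and EDA2R (0.30). For ANGPTL4 they were PMAIP1 (0.21), FAM20C, a secretory pathway kinase (0.25), GPSM3 (0.29), the stress-induced pseudokinase TRIB3 (0.30), the tetraspanins CD82 (0.30) and TSPAN1 (0.32), MYH16 (0.32) and SLC18B1 (0.33). AL008726.1 averaged 0.2655 CPM in induced DMSO cells and at most 0.0511 CPM in non-induced groups, below the 0.5 added before logs. Its nearness to PLTP thus depends on that constant. The 13273 genes compared had a mean of at least 1 CPM over the 18 libraries. AL008726.1 reached that mean only through the induced groups with a compound. The fitted log2 fold change with the p300/CBP compound in induced cells was 3.80 for AL008726.1 and 2.32 for PLTP. The nearest gene to ANGPTL4 lay further from it than LINC00324 did from PLTP. These differences describe 6 group means and carry no test.

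**Figure D4:**
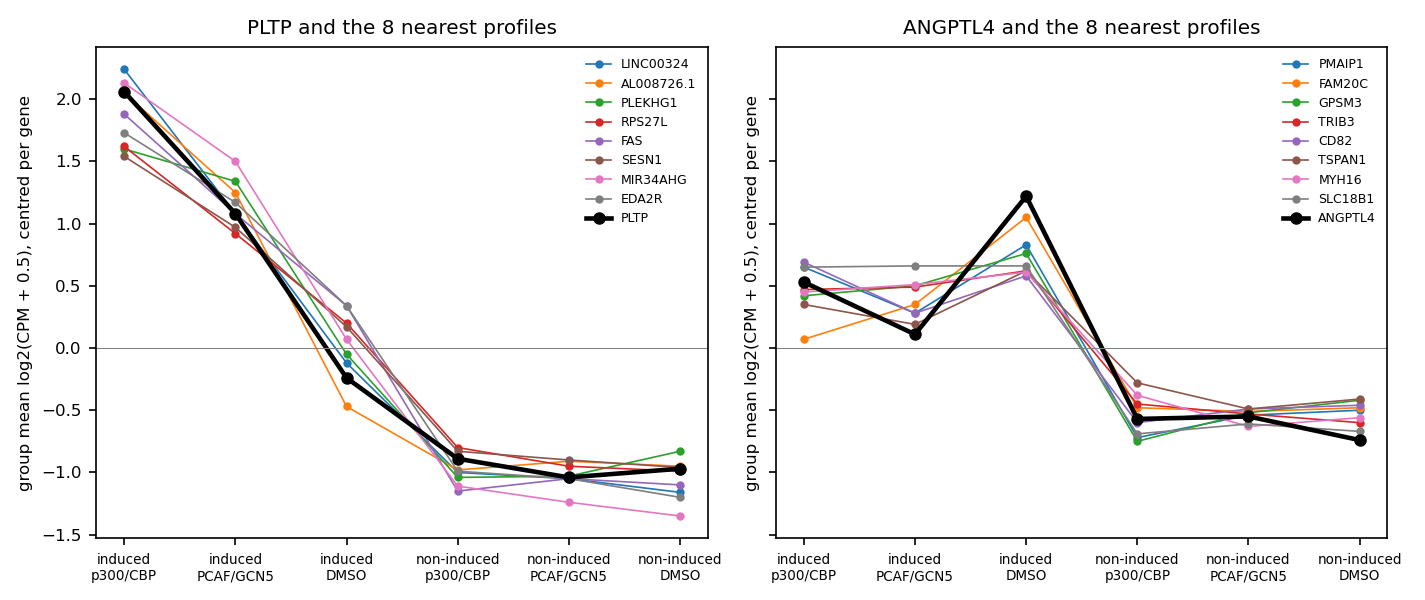
Group means of log2(CPM + 0.5), centred per gene, for PLTP (left, thick line) and ANGPTL4 (right, thick line) with the 8 nearest genes of each, over the 6 groups. Lines only join the points of 1 gene. The genes around PLTP descend across the 3 induced groups, and no gene near ANGPTL4 has as high a value as ANGPTL4 in induced DMSO cells.

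Some other genes of the same lipid and signalling pathways also passed the threshold. Of 176 genes on 12 lists, with PLTP and ANGPTL4 left out, 126 were tested for the p300/CBP compound in induced cells, and 7 rose and 6 fell, beside the 2.94% and 3.04% of all genes tested, with a median log2 fold change of -0.0025 beside -0.0029 over all genes tested. Without the third induced DMSO library, 28 of 127 rose and 18 fell, while calls over all genes tested went from 898 to 3234. Among the genes of lipoprotein lipolysis, where ANGPTL4 acts, 1 of 10 tested rose, the heparan sulphate proteoglycan SDC1 (0.96), a lipoprotein-binding surface protein, and the median of the list was 0.097. LPL, the lipase that ANGPTL4 inhibits, had 0 to 49 counts per library and did not pass the filter on low counts in this comparison, and its endothelial anchor GPIHBP1 stayed below 1 CPM in all 18 libraries. Of the 10 tested HDL and lipoprotein remodelling genes, where PLTP acts, 0 passed in edgeR, 1 was called by DESeq2 and 3 had an unadjusted p below 0.05, with a median of -0.026. The lowest adjusted p among them was that of the cholesterol exporter ABCA1 (0.49 ± 0.13, edgeR adjusted p = 0.0568). None of the 11 other members of the BPI, LBP and CETP family was tested, as all were too low. Among the LXR targets, the phospholipid acyltransferase LPCAT3 rose (0.52) and the lipogenic regulator SREBF1 fell (-0.46), of 13 tested with a median of 0.013. Of the 13 tested genes of lipoprotein uptake 1 fell, 2 were called by DESeq2, and the median was -0.029.

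Among the PPAR targets, which include ANGPTL4, the mitochondrial acyltransferase CPT2 rose (0.41) and the fatty acid-binding FABP5 fell (-0.63), of 13 tested with a median of -0.082. Of 23 hypoxia targets, the transcription factor BHLHE40 rose (0.72) and the mitophagy receptor BNIP3 fell (-0.33), and the median was -0.068. Of 12 glucocorticoid targets 1 fell, the EGFR inhibitor ERRFI1 (-0.33), beside a median of -0.015. Of 16 TGF-beta targets, LOXL2, a lysyl oxidase, fell (-0.42) and BHLHE40, which is also a hypoxia target, rose, beside a median of -0.027. Of the 14 lipid nuclear receptors and their cofactors, the corepressor NCOR1 rose (0.48), the LXR genes NR1H2 and NR1H3 and the PPAR genes did not pass, and the median was 0.087. The 2 tested relatives of ANGPTL4 had log2 fold changes of 0.02 ± 0.41 (ANGPTL6) and 0.04 ± 0.09 (ANGPT1, edgeR adjusted p = 0.801), neither past the threshold. The lipid-linked p53 targets, a list that also holds PLTP, had 9 other genes tested. Of these, the coenzyme A synthesis kinase PANK1 (1.08) and the creatine synthesis enzyme GAMT (0.64) rose and SREBF1 fell, beside a median of 0.24. DESeq2 called 5 of these 9 genes, and 5 had an unadjusted p below 0.05 in edgeR. In each other list of this paragraph, DESeq2 called 0 to 4 genes. Over all 15019 genes tested, edgeR called 2.94% higher and 3.04% lower, and DESeq2 called 1350 genes. None of the genes named here from the lists moved as far as PLTP.

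**Figure D5:**
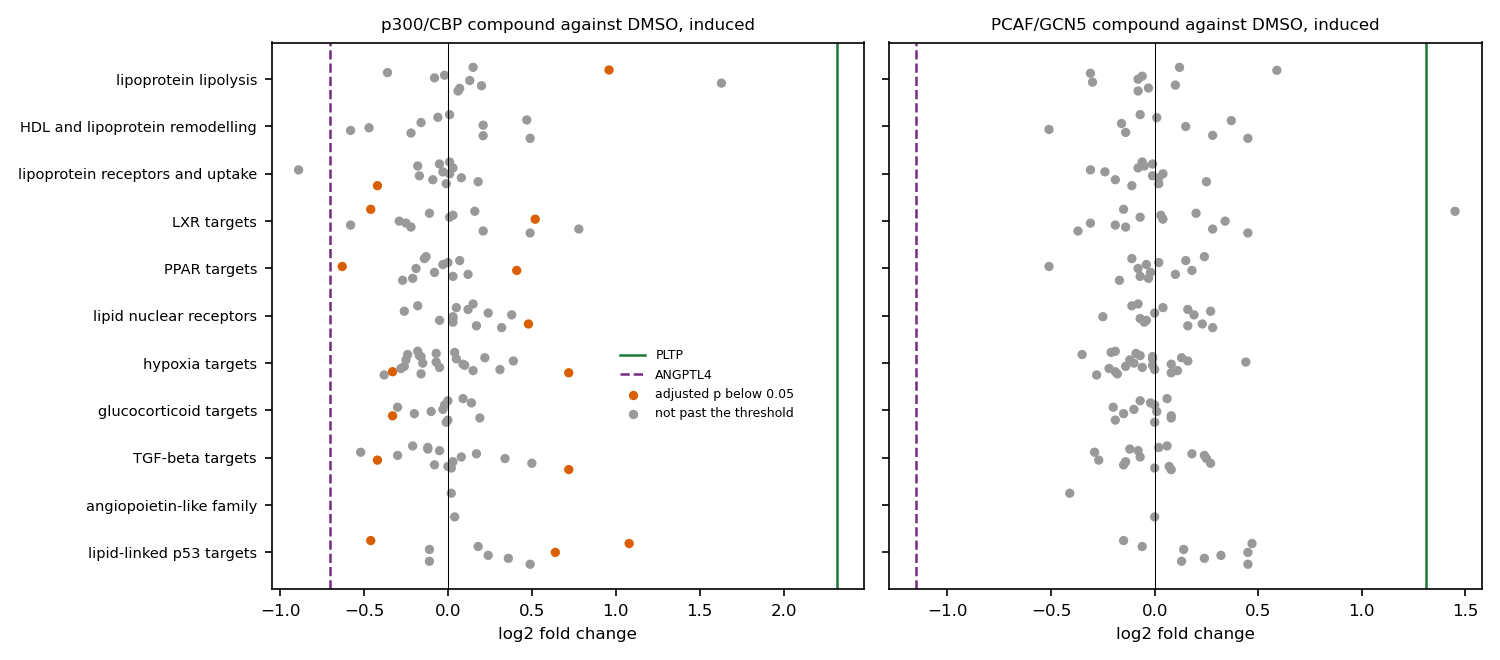
Log2 fold change of the listed genes (points) with the p300/CBP compound (left) and the PCAF/GCN5 compound (right) against DMSO in induced cells, by list, with PLTP (solid line) and ANGPTL4 (dashed line) marked. Orange points passed an adjusted p of 0.05, and ANGPT4, which has almost no counts with DMSO, is left out. PLTP at 2.32 lies right of all listed genes in the left panel.

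For the PCAF/GCN5 compound in induced cells, 1 of 126 tested list genes was called, the angiopoietin gene ANGPT4, beside 0.345% of all genes tested, and the median over the lists was -0.014 beside -0.0069 over all genes. Without the third induced DMSO library, 3 of 128 rose, while calls over all genes tested went from 52 to 114. ANGPT4 had 23, 24 and 14 counts with the compound, against 1, 1 and 0 counts with DMSO, so its fitted fold change is not given. On induction more of all genes were called (13.8% in DMSO, 32.6% with the p300/CBP compound and 23.9% with the PCAF/GCN5 compound), and so were more of the list genes. Of these, 20 of 126 tested genes rose and 11 fell in DMSO, beside 6.01% of all genes tested called higher. Without the third induced library, 38 of 128 rose and 30 fell there. Calls over all genes tested went from 2075 of 15055 with that library to 5001 without it. With the p300/CBP compound 37 of 124 rose and 27 fell, and with the PCAF/GCN5 compound 30 of 127 rose and 20 fell. The shares of all genes tested called higher were 16.4% and 11.4% with these compounds. Among those that rose in DMSO were APOE, a lipoprotein ligand (1.28), the lipoprotein receptor LRP1 (0.78), PANK1 (0.75) and ABCA1 (0.56). ANGPTL4, at 1.95 in the same comparison, lay above each of these, and PLTP, at 0.71, lay among them. Of 128 list genes tested for the interaction of the p300/CBP compound and induction, 5 were higher, among them SDC1 (1.41), PANK1 (0.92) and GAMT (0.76), and 1 was lower, beside 1.09% and 0.192% of all genes tested. Without the third induced DMSO library, 8 of 129 were higher and 6 lower, while calls over all genes tested went from 200 to 432.

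The authors' deposited table of the p300/CBP compound in induced cells, whose fold changes run DMSO over compound, gives -2.308 for PLTP and 0.7099 for ANGPTL4 on the log2 scale. In the authors' deposited table of the PCAF/GCN5 compound in induced cells, of the same direction, the values are -1.307 and 1.147. For non-induced cells, the authors' deposited table of the p300/CBP compound, which runs compound over DMSO, has 0.04876 for PLTP and 0.1426 for ANGPTL4, and that of the PCAF/GCN5 compound has -0.1013 and 0.1698.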

How the data were processed

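RNA from 18 samples of H1299 cells was sequenced by the authors from directional total RNA libraries, per the labels' protocols. The submitters' processing notes name StringTie and DESeq2 without versions. The aligner, build, annotation and use of strand are not given in the sources used here. Per the file headers, the 4 deposited tables hold raw counts per gene, counts scaled by the authors (a signal), a length per gene and the authors' log2 fold changes with p-values. Of the lines in 1 deposited table, 4 are not intact and were left out. The DMSO counts of that table equalled those of the second non-induced table in all intact lines and were taken from there.

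The deposited counts were fitted with edgeR 4.0.16 in R 4.3.3 (TMM, filterByExpr, quasi-likelihood F test, 2-sided) on the groups compared, with Benjamini-Hochberg adjustment over all genes tested and a call at an adjusted p below 0.05. The SE is the log2 fold change divided by the square root of F, and intervals are 95%. CPM divide each count by its library total and multiply by 1000000, with 0.5 added where logs were taken. Alternatives were DESeq2 1.42.0 size factors and Wald test, no filter, all 6 groups in 1 fit, the replicate number as a block and leaving out each library. The members, lists and tests were chosen with earlier results of these data known. Named are both members in every comparison, called genes of each list (at most 4 by size), neighbouring genes, and the 8 nearest patterns. Some genes that this rule names are not reported here. Library totals of 9.1 to 29.2 M counts set the precision.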

Additional observations from a re-analysis of the deposited data

Results flagged for a closer look

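The response of PLTP to the p300/CBP compound differed between induced and non-induced cells: the interaction was 2.27 ± 0.11 on the log2 scale (SE; edgeR quasi-likelihood test, adjusted p = 2.75e-09). The response of ANGPTL4 to the same compound differed in the other direction, by -0.84 ± 0.12 (adjusted p = 0.00174). Both tests use the induced DMSO libraries, which also took part in the contrast that chose the genes.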

How the results depend on the processing

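The 12 called changes of PLTP and ANGPTL4 kept their direction and their call under all 144 alternative values computed for them. Of these changes, only those on induction with the p300/CBP compound share no library with the contrast that chose the genes. The values given without a test kept their sign under all 56 alternatives. Those values are or contain the contrast that chose the genes by direction, so their steady sign is no separate support. In non-induced cells, leaving out 1 library at a time moved PLTP between -0.0046 and 0.092 with the p300/CBP compound against DMSO (lowest without replicate 1 of that compound), ANGPTL4 between 0.091 and 0.21 in that comparison (called at 0.21, without replicate 3 of that compound), and ANGPTL4 between -0.077 and 0.054 between the compounds.

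Counts of genes called over the whole table moved more, and their causes were not tested. With no filter on low counts, 541 genes were called for the PCAF/GCN5 compound in induced cells, 2106 for the p300/CBP compound in induced cells, 48 for the PCAF/GCN5 compound in non-induced cells, 594 between compounds in non-induced cells, 416 for the p300/CBP interaction and 258 for the PCAF/GCN5 interaction. With all 6 groups in 1 fit, the counts were 352 and 2214 for the same compounds in induced cells, 394 between compounds in induced cells, 0 and 615 for the PCAF/GCN5 and p300/CBP compounds in non-induced cells, 3455 for induction in DMSO and 38 for the PCAF/GCN5 interaction. Beside that 0 from edgeR, DESeq2 called 6 and 959 genes had an unadjusted p below 0.05 in the reported fit. With DESeq2's Wald test, 128, 1350, 6, 443 and 51 genes were called for the PCAF/GCN5 and p300/CBP compounds in induced cells, the PCAF/GCN5 compound in non-induced cells, the compounds in non-induced cells and the PCAF/GCN5 interaction.

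Same-numbered replicates did not deviate together: of 45 pairs 2 had a correlation above 0.1, with a range of -0.12 to 0.122. With the replicate number as a block, 530 genes were called for the p300/CBP compound in induced cells, 14 for the PCAF/GCN5 compound in non-induced cells and 46 between compounds in non-induced cells, and no call of PLTP or ANGPTL4 changed.

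Leaving out 1 library at a time gave 29 to 114 genes called for the PCAF/GCN5 and 263 to 3234 for the p300/CBP compound in induced cells, 236 to 1098 between them, 0 to 17 and 527 to 2384 for these compounds in non-induced cells, 1 to 310 between them there, 869 to 5001 for induction in DMSO, 123 to 432 for the p300/CBP interaction and 8 to 24 for the PCAF/GCN5 interaction. Replicate 3 of induced DMSO gave the highest count when left out in each comparison or interaction that held it, 114, 3234, 5001, 432 and 24 genes for the PCAF/GCN5 and p300/CBP compounds in induced cells, induction in DMSO and the p300/CBP and PCAF/GCN5 interactions. The shallowest library is replicate 3 of non-induced DMSO, with 9.1 M counts, and without it 1012 genes were called for induction in DMSO.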
